A study of Mus musculus with 12 samples.

Results

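The wild-type cortex of adult C57BL/6J mice is described here from the 6 wild-type libraries of a series of 12, with no library of the other genotype used. These 6 were taken by the genotype and sex code in their names, and they are females 2, 4 and 5 and males 8, 12 and 13, so there were 3 mice of each sex. Every mouse was 12 weeks old and without the Tbl1xr1 Y446C allele that the series was made to study as a model of Pierpont syndrome. Cortex was frozen after the mice had been bled out, and polyadenylated RNA was sequenced as paired reads. The numbers are animal numbers from the labels.

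The cerebral cortex is a sheet of 6-layered tissue in which glutamatergic projection neurons outnumber GABAergic interneurons, among astrocytes, oligodendrocytes, microglia and vessels. Neurons spend much of their energy on ion pumping and synaptic transmission, so pump subunits, calcium-binding proteins and respiratory chain genes are known to be abundant in cortical RNA. The striatum lies under the cortex, and the hippocampus and thalamus lie close by, so their marker genes can be read in the same libraries to describe what a dissected sample held.

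Counts assigned to genes ran from 21238427 in male 13 to 26343855 in female 2. A count of 0 allowed up to 0.114 to 0.141 counts per 1000000 (CPM), a floor of 3 counts per library that covers counting error alone. Between libraries of the same sex the chi-square of the counts per degree of freedom was 9.01 to 39.8, so mice of 1 sex differed by more than counting error, and the 2 highest values, 39.8 and 35.6, were those of male 8 with the other males. Mitochondrial genes took 10.4% of the counts in male 8 and 5.23% to 7.89% in the others. Levels of different genes are compared below only in transcripts per 1000000 (TPM), which divide counts by the length of each gene's exons, and levels of 1 gene between mice are compared in CPM on scaled library totals. Values after ± are SDs over the 6 libraries. Nothing in the labels says how the mice relate to one another beyond sex, and spread between libraries includes that of dissection and library preparation.

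Of 54232 genes in the table, 17584 reached a mean of 1 TPM. Among the 21983 protein-coding genes 13809 did so, or 62.8%, with a median of 20.8 TPM, and 4208 had no count in any of the 6 libraries. At the other end 1601 reached 100 TPM, and 38 of those encoded in the nucleus reached 1000 TPM. Long noncoding genes at 1 TPM numbered 1466 of 9572. The 100 genes with most counts took 19.8% ± 1.90 of a library, and the share was highest in male 8, at 23.2%, against 18.5% to 20.8% elsewhere.

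The most abundant nuclear mRNAs were those of calcium signalling, ion pumping, protein synthesis and folding, and glial support. Calm2 led at 3388 ± 155 TPM, with Calm3 at 1697 ± 94.6 TPM, and both encode one and the same protein, calmodulin, the main calcium sensor of the cell. Nrgn, or neurogranin, which binds calmodulin in dendrites, was at 1504 ± 249 TPM. Sparcl1, a matrix protein secreted by astrocytes that acts on synapse formation, was at 2445 ± 194 TPM, and Glul, the astrocyte enzyme that turns glutamate into glutamine, was at 1659 ± 97.3 TPM. Atp1b1, a beta subunit of the sodium pump, was at 2113 ± 117 TPM. Eef1a1 and Eef1a2, the elongation factors that bring aminoacyl-tRNA to the ribosome, were at 2242 ± 204 TPM and 1506 ± 121 TPM. Hsp90ab1 and Hspa8, constitutive chaperones, were at 1948 ± 156 TPM and 1584 ± 112 TPM.

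Genes of the secretory and transport machinery made up the rest of the 15 highest. Cpe, the carboxypeptidase that trims neuropeptide precursors, was at 2396 ± 289 TPM, and Psap, the precursor of lysosomal saposins, was at 1573 ± 251 TPM. Kif5a, a neuronal kinesin heavy chain, was at 1629.7 ± 87.8 TPM, and Gpm6a, a membrane glycoprotein of neurites, was at 1609 ± 91.3 TPM. Neighbours in this order, such as Kif5a, Gpm6a and Hspa8, lay within one SD of each other. Spread is given below as the biological coefficient of variation (BCV), a fraction of the level. It is edgeR's estimate of the spread between mice of the same sex beyond counting error, pulled toward the trend over all genes. For steady genes it can exceed their own spread, as for Atp1b1, with a BCV of 0.079 and 1668 ± 45.2 CPM. Between mice these 15 genes moved little, with BCVs from 0.079 for Atp1b1 to 0.131 for Nrgn. The median over all 15127 genes with a mean of 1 CPM was 0.109.

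The calmodulin sequences are shown because identical proteins raise the question whether reads of the copies can be told apart. The first 60 coding bases of Calm2 and the closest stretch in Calm3 transcripts, from GENCODE M21 on GRCm38, are printed below, with capitals marking the bases at which Calm3 differs.
Calm2: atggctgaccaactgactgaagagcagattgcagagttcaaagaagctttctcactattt
Calm3: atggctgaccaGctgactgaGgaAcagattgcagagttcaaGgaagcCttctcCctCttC
Calm3 (chromosome 7) differed from Calm2 (chromosome 17) at 8 of the 60 bases. Over the whole longest coding sequence, 96.8% of the 100-base windows of Calm2 and 99.1% of those of Calm3 occurred in no other annotated gene. The printed stretch of Calm2 is held exactly by 1 other annotated gene, and that of Calm3 by 0. The share of windows held by no other gene is called sequence uniqueness below.

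Of the 13 mitochondrial mRNAs, 6 stood above every nuclear mRNA, and others were listed far lower. The cytochrome c oxidase subunit mt-Co1 was at 51247 ± 6913 TPM, mt-Cytb of complex III at 37723 ± 9629 TPM and mt-Nd1 of complex I at 31726 ± 10517 TPM. By contrast mt-Co2, mt-Co3 and mt-Atp6 were listed at 409 ± 25.0 TPM, 218 ± 30.1 TPM and 167 ± 43.4 TPM, although they are cut from the same long precursor RNA as mt-Co1. For mt-Co2, mt-Co3, mt-Atp6, mt-Nd4l and mt-Nd3 sequence uniqueness was at most 2.41%, while every window was unique for mt-Cytb, mt-Nd1, mt-Nd5 and mt-Nd6, and the share was 96.8% for mt-Nd2, 69.2% for mt-Co1 and 39.2% for mt-Nd4. Low in spite of unique windows was mt-Atp8, at 1.37 ± 1.20 TPM, which overlaps mt-Atp6 on the same strand. The part of shared sequence in these levels was not tested, since the handling of reads with several matches is not given in the sources used here. The stretches below show the case: the first 60 coding bases of mt-Co2, an identical stretch in Gm28661, a pseudogene on chromosome 1 (24614885 to 24615565, minus strand), and the first 60 of mt-Cytb, which no other annotated gene holds. No base is in capitals because no base differs.
mt-Co2: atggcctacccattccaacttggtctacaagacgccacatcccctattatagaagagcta
Gm28661: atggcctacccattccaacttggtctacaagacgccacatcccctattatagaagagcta
mt-Cytb: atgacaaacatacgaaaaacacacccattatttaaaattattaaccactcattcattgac
Gm28661 itself was listed at 404 ± 141 TPM, beside 409 ± 25.0 TPM for mt-Co2.

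**Figure D1:**
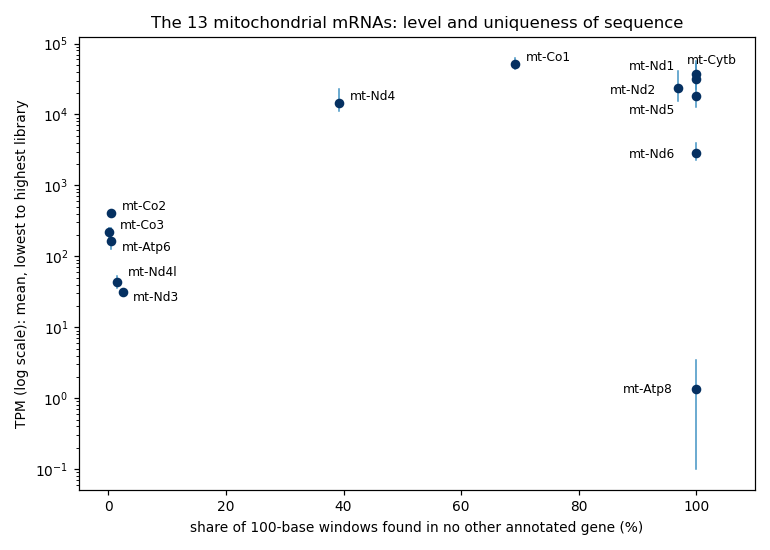
Mean TPM of each of the 13 mitochondrial mRNAs (vertical, log scale; lines run from the lowest to the highest library, and the line of mt-Atp8, whose lowest library is at 0, is cut at the bottom) against the share of its 100-base windows that no other annotated gene holds (horizontal, percent). The 5 mRNAs with at most 2.41% unique windows lie between 31.3 and 409 TPM, and mt-Atp8 apart from all at 1.37 TPM.

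Mitochondrial mRNAs had BCVs from 0.11 (mt-Co2) to 0.318 (mt-Nd5) among the 12 with a mean of 1 CPM. In mt-Nd5, a complex I subunit, the libraries held 6751, 5721 and 9877 CPM in females 2, 4 and 5 and 17759.8, 6390.5 and 6185 CPM in males 8, 12 and 13. Male 8 was highest by a wide gap, and female 5 came next. For mt-Co1 the values were 19247, 16899.9 and 23878 CPM in females 2, 4 and 5 and 27049, 18104 and 17655 CPM in males 8, 12 and 13, again highest in male 8, with female 5 next.

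Common reference genes for qPCR included some with many near-identical copies. Of the 16 listed, Actb was highest at 1177 ± 124 TPM and Gusb lowest at 8.60 ± 1.09 TPM, with a median of 208 TPM. Gapdh, the glycolytic enzyme often used to normalise, was listed at only 10.6 ± 3.73 TPM, and Rpl13a, a ribosomal protein gene, at 9.64 ± 1.22 TPM. Just 6.13% of the coding windows of Gapdh and 2.75% of those of Rpl13a were unique, against 98.1% for Actb and every window for Sdha. The coding windows of Ppia and Pgk1 were 0% unique, yet these were listed at 388 ± 59.0 TPM and 509 ± 77.3 TPM, so a low share does not by itself go with a low listed level. Over the 13792 protein-coding genes at 1 TPM for which it could be computed, the median coding uniqueness was 100%, and 215 genes were under 10%. The 60 coding bases of Gapdh that recur most often are printed below, from its coding base 485, with the identical stretch in 1 of the 68 other annotated genes that hold it, the processed pseudogene AC091332.1 on chromosome 17 (79257410 to 79258049, minus strand).
Gapdh: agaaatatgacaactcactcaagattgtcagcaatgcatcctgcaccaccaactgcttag
AC091332.1: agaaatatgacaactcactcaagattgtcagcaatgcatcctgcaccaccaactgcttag
Gapdh lies on chromosome 6, 125161715 to 125166467, minus strand.

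Among long noncoding genes Gm42418 was listed highest, at 15411 ± 6153 TPM, and it overlaps ribosomal RNA repeats, which a polyadenylated library is meant to leave out. Its values were 5452, 11399 and 9283 CPM in females 2, 4 and 5 and 7825, 3008 and 6780.1 CPM in males 8, 12 and 13. The highest was in female 4 and the lowest in male 12. Gm23935, annotated as a miRNA of only 57.0 bases, reached 30411 ± 17221 TPM, a level raised by the division by so short a length, since it held 0.0151% to 0.0810% of a library's counts. After Gm42418 among long noncoding genes came 2900097C17Rik at 1145 ± 68.3 TPM, Malat1, a nuclear RNA of splicing speckles, at 911 ± 148 TPM, Meg3, an imprinted RNA expressed from the maternal allele, at 707 ± 108 TPM and 1700020I14Rik at 384 ± 23.2 TPM. Meg3 was at 3159, 3110.1 and 2688 CPM in females 2, 4 and 5 and 4371, 3229 and 3147 CPM in males 8, 12 and 13, highest in male 8.

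Marker genes of cortical neurons were present in every mouse, as the tissue label would have it. All 12 markers of excitatory neurons passed 1 TPM, with a median of 146 TPM. Nrgn was followed by Camk2a, the postsynaptic kinase, at 1269 ± 124 TPM and Slc17a7, the vesicular glutamate transporter VGLUT1, at 537 ± 111 TPM. Factors that pattern the forebrain were all detected, led by Neurod6 at 176 ± 6.45 TPM and Tbr1 at 91.1 ± 9.72 TPM. In bulk tissue fewer cells of a type and less RNA per cell cannot be told apart, so none of these levels is a cell number.

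Every layer list was detected in full. Lamp5 at 193 ± 26.5 TPM and Calb1 at 119 ± 7.23 TPM led the 6 markers of layers 2 and 3, of which Calb1 and Lamp5 are also made by interneurons. Rorb, a nuclear receptor of layer 4 neurons, was at 23.9 ± 1.89 TPM, and Whrn, the second of that list, at 19.8 ± 1.65 TPM. Bcl11b, the Ctip2 factor of layer 5 projection neurons, was at 66.3 ± 10.4 TPM, and striatal neurons express it too. Etv1, a transcription factor of the same layer, was at 36.0 ± 5.79 TPM, and Fezf2, which specifies subcerebral projection, was at 26.9 ± 2.58 TPM. Among layer 6 genes Rprm was at 65.8 ± 13.6 TPM, Tle4 at 53.9 ± 6.88 TPM and Ccn2, made by neurons at the base of layer 6, at 39.6 ± 4.52 TPM. Medians were 54.0 TPM for layers 2 and 3, 17.8 for layer 4, 26.9 for layer 5 and 33.4 for layer 6, and these lists differ in what they hold, so the order is not one of layers.

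All 20 inhibitory neuron genes were detected, with a median of 23.3 TPM. Somatostatin (Sst) was highest at 420.5 ± 25.5 TPM, followed by neuropeptide Y (Npy) at 225 ± 30.0 TPM and the GABA-synthesising enzymes Gad1 at 221 ± 20.0 TPM and Gad2 at 218 ± 20.8 TPM. The lowest was Chodl, of a rare long-range Sst type, at 1.08 ± 0.269 TPM. Of the broader list of 18 neuropeptide and granin genes, Chgb, a granin packed in dense-core vesicles, was highest at 758 ± 59.6 TPM. Scg2, or secretogranin II, was at 441 ± 27 TPM, and Cck, made by both pyramidal cells and interneurons, at 263 ± 43.5 TPM.

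Glial markers were abundant too. Oligodendrocyte genes had the highest median of the cell lists, 258 TPM, with the myelin genes Mbp at 1135 ± 80.7 TPM and Mobp at 689.5 ± 64.6 TPM among the highest. The astrocyte median was 109.8 TPM, with Slc1a2, the glutamate transporter GLT-1, at 1239.5 ± 79.9 TPM and Aldoc at 642 ± 83.1 TPM behind Glul. Oligodendrocyte precursor genes had a median of 33.2 TPM, led by Tnr at 112 ± 8.08 TPM and Olig1 at 111 ± 15.7 TPM. The microglial median was 39.3 TPM, with the complement genes C1qa at 82.9 ± 5.41 TPM and C1qb at 73.2 ± 6.39 TPM, while border macrophage genes had a median of 0.867 TPM with Mrc1 at 2.50 ± 0.914 TPM and Pf4 at 1.48 ± 0.407 TPM alone above 1 TPM. Of vessel genes the glucose transporter Slc2a1 was at 62.6 ± 5.56 TPM, the tight junction gene Cldn5 at 51.6 ± 5.67 TPM the pericyte gene Rgs5 at 106 ± 11 TPM and Vtn, or vitronectin, at 82.3 ± 8.23 TPM.

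**Figure D2:**
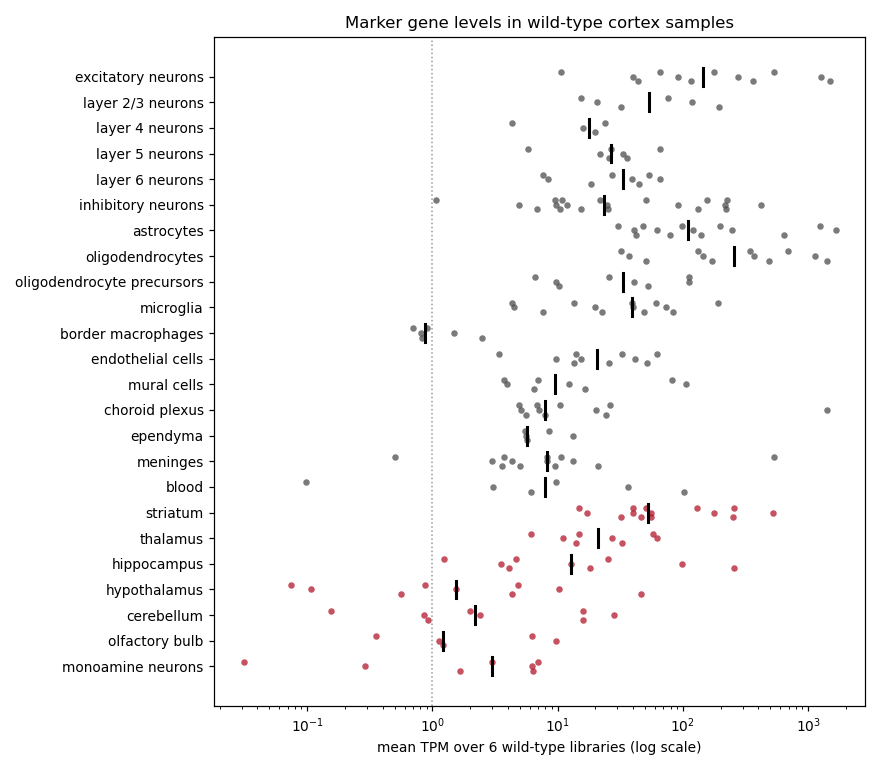
Mean TPM over the 6 wild-type libraries (log scale) of each gene of the marker lists, 1 point per gene with the list median as a bar; grey points are cell type lists and red points lists of other brain regions. The dotted line is 1 TPM, and the medians of hypothalamus (1.56 TPM), olfactory bulb (1.20 TPM) and cerebellum (2.19 TPM) lie near it, while the striatal median is 53.2 TPM.

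Genes of choroid plexus, meninges and blood were detected. The choroid plexus gene Ttr, which encodes transthyretin, the thyroid hormone carrier of cerebrospinal fluid, was at 1429 ± 206 TPM, among the most abundant mRNAs, while the other 10 genes of that list lay between 4.88 TPM (Slc4a5) and 26.2 TPM (Kcnj13). In the 6 libraries Ttr was at 456, 458 and 404 CPM in females 2, 4 and 5 and 369.6, 431 and 475 CPM in males 8, 12 and 13, so the libraries ranged little. Ptgds, the prostaglandin D synthase of meninges and oligodendrocytes, was at 535 ± 123 TPM, and the other meningeal genes were at most 21.1 TPM (Mgp). Of the globins, Hbb-bs was at 102 ± 35.8 TPM and Hba-a1 at 36.2 ± 12.1 TPM, with 7.31% and 14.1% of coding windows unique, so their split from near copies is uncertain. The red cell gene Slc4a1 was at 0.0970 TPM.

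Markers of the striatum had the highest median of the brain region lists. All 14 genes of the list were detected, with a median of 53.2 TPM and a sum of 1696 ± 724 TPM. Penk, the enkephalin precursor of indirect-pathway neurons, was at 527 ± 247 TPM, Ppp1r1b, whose product DARPP-32 inhibits a phosphatase under dopamine control, at 257 ± 109.7 TPM, and Scn4b, a sodium channel beta subunit, at 177 ± 71.5 TPM. The dopamine receptors Drd1 and Drd2 were at 56.0 ± 26.3 TPM and 55.8 ± 27.4 TPM. Cortical neurons also express Penk, Pde10a and Ppp1r1b at lower levels, and the level they would give alone was not measured here.

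The same mice were at the ends of the range for most striatal genes. Drd2 was at 19.3, 34.7 and 67.5 CPM in females 2, 4 and 5 and 41.1, 46.2 and 13.2 CPM in males 8, 12 and 13. Female 5 was highest, and male 13 and female 2 were lowest. Drd1 was at 32.8, 48.7 and 101 CPM in females 2, 4 and 5 and 46.5, 63.4 and 24.5 CPM in males 8, 12 and 13, in the same order at both ends. All 14 striatal genes were highest in female 5, and 12 of 14 were lowest in male 13. As 1 level per mouse, the geometric mean of each member relative to its 6-library mean, the list stood at 0.60, 0.95 and 1.77 in females 2, 4 and 5 and 0.96, 1.19 and 0.51 in males 8, 12 and 13, a range of 3.47-fold. The excitatory neuron list ranged 1.17-fold in the same libraries, and the astrocyte list 1.17-fold.

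Other brain regions had lower medians, and the highest mouse was not the same for all. It was male 8 for thalamus and hypothalamus, male 13 for cerebellum and olfactory bulb, and female 2 for hippocampus and monoamine neurons. The hypothalamic level rests on only 2 of 9 genes, Pmch and Trh, the members with a mean of 1 CPM. The 8 thalamic genes, among them Slc17a6 (VGLUT2) at 61.7 ± 22.4 TPM and Prkcd at 57.7 ± 17.0 TPM, stood at 1.24, 0.93 and 0.79 in females 2, 4 and 5 and 1.49, 0.64 and 0.86 in males 8, 12 and 13. Male 8 and female 2 were highest, and male 12 was lowest for 7 of the 8, against 12.8% of all genes with a mean of 1 CPM. The hippocampal list, with Prox1 of dentate granule cells at 25.1 ± 5.42 TPM and Fibcd1 of CA1 at 18.1 ± 7.93 TPM, stood at 1.12, 1.08 and 0.70 in females 2, 4 and 5 and 0.99, 0.86 and 1.11 in males 8, 12 and 13, and Dkk3 and Wfs1, which cortex expresses too, were its 2 highest at 255 ± 33.6 TPM and 97.7 ± 12.2 TPM. Male 12 was the lowest library for the lists of thalamus, hypothalamus, cerebellum, olfactory bulb, monoamine neurons and meninges.

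Hypothalamic, cerebellar, olfactory and midbrain genes were at or near the limit of detection in some mice and clear in others. Pmch, the precursor of melanin-concentrating hormone made in the lateral hypothalamus, was at 17.3, 3.82 and 1.67 CPM in females 2, 4 and 5 and 30.5, 0.561 and 1.20 CPM in males 8, 12 and 13. Male 8 and female 2 stood above the rest. Hcrt, the orexin precursor of the same area, was at 1.90, 0.0831 and 0.0418 CPM in females 2, 4 and 5 and 3.41, 0.129 and 0.138 CPM in males 8, 12 and 13, again high in those 2 libraries. Nr5a1, a factor of the ventromedial hypothalamus, was at 0.0744 TPM, and of the monoamine genes Slc6a4, the serotonin transporter, was at 0.0312 TPM, so both were near 0. Trh, thyrotropin-releasing hormone, was at 4.80, 3.28 and 2.01 CPM in females 2, 4 and 5 and 4.07, 2.20 and 5.39 CPM in males 8, 12 and 13. It was highest in male 13, with female 2 and male 8 next, so its order was not that of Pmch and Hcrt.

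Of the cerebellar list Zic1, a factor also of meninges and thalamus, was highest at 28.4 ± 9.39 TPM and Cbln1 next at 16.1 ± 6.59 TPM. The genes of cerebellar granule cells, Gabra6 and Cbln3, were high in other mice. Gabra6, a GABA receptor subunit almost restricted to those cells, was at 0.298, 2.62 and 0.125 CPM in females 2, 4 and 5 and 0.655, 0 and 3.78 CPM in males 8, 12 and 13, and Cbln3 was at 0.521, 5.98 and 0.418 CPM in females 2, 4 and 5 and 2.43, 0.647 and 7.55 CPM in males 8, 12 and 13. Male 13 and female 4 were highest in both. Eomes, the Tbr2 factor of mitral and tufted cells, was at 0.632, 1.04 and 0.376 CPM in females 2, 4 and 5 and 1.08, 0.129 and 4.38 CPM in males 8, 12 and 13, highest in male 13, and Cdhr1, also of mitral cells, was highest there as well, at 22.3 CPM against at most 9.37 CPM. The dopamine transporter gene Slc6a3 was at 17.6, 9.93 and 0.501 CPM in females 2, 4 and 5 and 2.95, 0.345 and 4.97 CPM in males 8, 12 and 13, highest in female 2. Midbrain dopamine neurons make it. Ddc, the decarboxylase that makes dopamine and serotonin, was at 6.36 ± 2.97 TPM, and the monoamine list stood at 1.95, 1.21 and 0.41 in females 2, 4 and 5 and 0.73, 0.31 and 0.93 in males 8, 12 and 13.

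**Figure D3:**
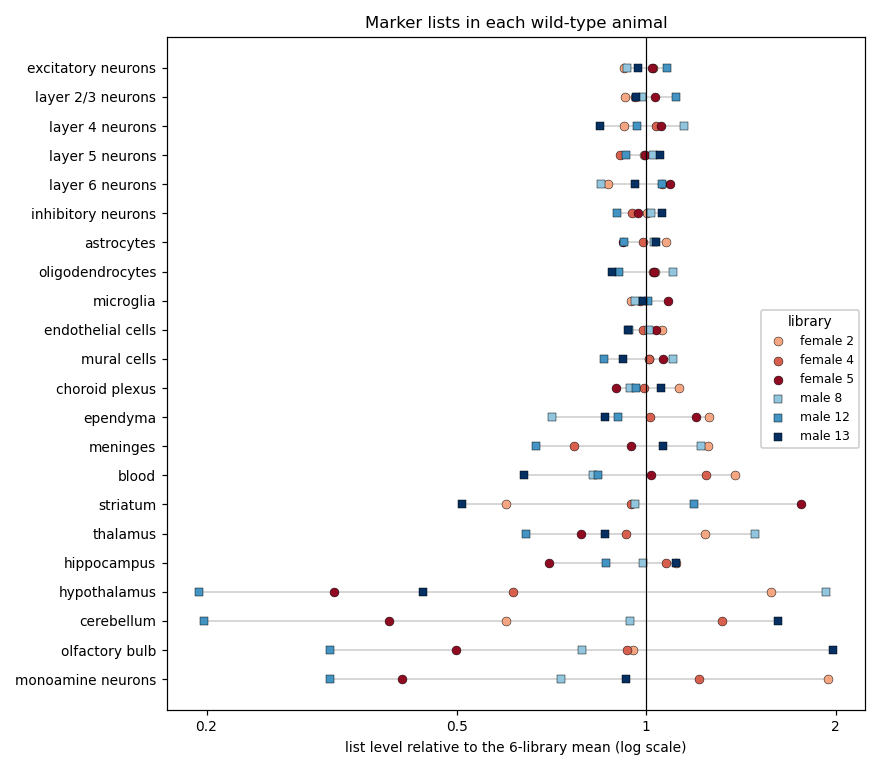
Level of each marker list in each wild-type library relative to the list's 6-library mean (horizontal, log scale); circles are females and squares males, and each list is a row. The excitatory neuron and astrocyte lists range 1.17-fold, the striatal list runs from 0.51 (male 13) to 1.77 (female 5), and the hypothalamic list from 0.19 (male 12) to 1.93 (male 8). Levels use only members with a mean of 1 CPM, which for the hypothalamus are 2 of 9 genes, Pmch and Trh.

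Lists of cell state were detected in full in the wild-type mice. Of 18 immediate-early genes, which neurons switch on within minutes of activity, Egr1 was at 350.0 ± 78.7 TPM, Arc, a regulator of AMPA receptor traffic, at 189 ± 62.8 TPM, and Fosb lowest at 9.73 ± 2.75 TPM. Male 8 was the lowest library for 12 of the 18, and for 29.7% of all genes with a mean of 1 CPM. The list of immediate-early genes stood at 1.08, 0.98 and 1.23 in females 2, 4 and 5 and 0.72, 0.93 and 0.96 in males 8, 12 and 13. Egr2, 1 of them, was at 13.8, 10.6 and 24.6 CPM in females 2, 4 and 5 and 4.96, 10.1 and 9.76 CPM in males 8, 12 and 13. The 16 clock genes had a median of 40.2 TPM, led by the PAR factors Hlf at 155 ± 7.80 TPM and Tef at 130.2 ± 24.0 TPM, and ranged 1.23-fold between mice. Killing time was not given in the sources used here.

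Stress and immune lists differed in level. The 16 heat shock and ER stress genes had a median of 89.2 TPM, led by Hsp90aa1 at 1187 ± 126 TPM and the calcium-binding chaperone Calr at 538 ± 55.1 TPM. Of the 11 genes induced by glucocorticoids the metallothioneins Mt2 and Mt1 were highest, at 157 ± 28.5 TPM and 106 ± 12.4 TPM, and Plin4 was lowest at 1.51 ± 0.943 TPM. Interferon-stimulated genes had a median of 3.14 TPM, and their highest members were Ifit3 at 13.2 ± 2.51 TPM and Bst2, or tetherin, at 6.72 ± 2.27 TPM.

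Paralogs share the work of a protein family in unequal parts, and the balance was read in 43 families. The first member by TPM was higher than the second in all 6 libraries in 37 families. It held at least 90% of the family in 3, namely hexokinase (Hk1, 97.6% ± 0.25), the SNAP-25 family (Snap25, 96.2% ± 0.41) and synaptobrevin (Vamp2, 94.7% ± 0.90), and under 50% in 13. The ratio of first to second had a median coefficient of variation of 11.1% between mice, from 2.31% for CaM kinase II to 42.0% for the vesicular glutamate transporters.

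Synaptic kinase and receptor families had steady orders. Camk2a, the alpha subunit of CaM kinase II, held 72.2% ± 0.42 of its family, and its ratio to Camk2b was 3.92, 3.77 and 3.80 in females 2, 4 and 5 and 3.91, 3.94 and 4.01 in males 8, 12 and 13, the narrowest of the 43. Gria1 held 46.6% ± 2.2 of AMPA receptor TPM, at 1.81 ± 0.17 times Gria2, the subunit that keeps calcium out. Grin2b held 59.0% ± 1.2 of the GluN2 subunits, and its ratio to Grin2a was 1.97, 2.0 and 1.95 in females 2, 4 and 5 and 2.29, 2.02 and 2.05 in males 8, 12 and 13, highest in male 8. Scn2a, the sodium channel of the axon initial segment, held 41.1% ± 1.7 and was 1.36 ± 0.068 times Scn8a.

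Balances that set neuronal type or transmitter were less steady. Slc17a7 held 88.3% ± 5.4 of vesicular glutamate transporter TPM, and its ratio to Slc17a6 was 5.58, 12.1 and 12.2 in females 2, 4 and 5 and 4.02, 14.6 and 11 in males 8, 12 and 13. The ratio was low in female 2 and male 8, the 2 libraries in which the thalamic list was highest. Slc17a6 is itself a member of that list, so the ratio and the list level are not separate. The part of thalamic tissue in the ratio was not tested beyond those values. Gad1 and Gad2, which make GABA in the cytosol and at the terminal, were nearly level, at 1.02, 1.15 and 0.929 in females 2, 4 and 5 and 0.768, 1.08 and 1.21 in males 8, 12 and 13. Gad1 was the higher in 4 of 6 libraries, and the difference was within the spread. The mean ratio was 1.03 ± 0.16, 0.990 without male 13, and 2.13 when the longest transcript gave the gene length in place of all exons, so Gad1 stayed first with either length and the size of the ratio depends on that choice.

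Metabolic and cytoskeletal families were also read. Neuronal enolase (Eno2) was at 1.91 ± 0.11 times Eno1, of whose coding windows 30.7% were unique. Ldhb, the heart-type lactate dehydrogenase subunit, was 3.62 ± 0.50 times Ldha, and male 8 was highest, at 4.49. Aldoa was 2.12 ± 0.21 times the astrocytic Aldoc. Actb was 2.41 ± 0.17 times Actg1, for which 8.09% of coding windows were unique. With the longest transcript as gene length, the ratios moved for enolase, to 1.21, lactate dehydrogenase, to 2.39, and aldolase, to 3.40, and kept their order.

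Other synaptic families had these leaders. Ppp3ca, the main catalytic subunit of calcineurin, held 74.0% ± 2.2 of its family. Grm5 held 31.4% ± 1.3 of metabotropic glutamate receptors and was higher than Grm3 in 5 of 6 libraries. Hcn2 led the HCN pacemaker channels with 74.7% ± 2.0, and Kcna2 the Kv1 potassium channels with 42.5% ± 1.8. Slc1a2 held 79.6% ± 1.1 of the glutamate transporters.

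Vesicle release families had clear leaders in most cases. Syn1 held 72.2% ± 5.2 of the synapsins, which tether vesicles, Dnm1 88.8% ± 0.78 of the dynamins, which cut endocytic vesicles free, and Rab3a 66.0% ± 2.2 of Rab3. Sv2a held 53.6% ± 1.6 and Cplx2 52.1% ± 2.5, and Cplx2 exceeded Cplx1 in 4 of 6 libraries, so the complexins did not differ beyond their spread. With the longest transcript as gene length the order of Sv2a and Sv2b turned, to a ratio of 0.956. At the synaptic membrane Dlg4, which encodes PSD-95, held 34.7% ± 1.2, Nlgn2, the neuroligin of inhibitory synapses, 68.4% ± 2.8, and Homer1 77.5% ± 4.6.

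Among the remaining families, Tubb4a, a beta tubulin of neurons and oligodendrocytes, held 38.9% ± 5.9, and its ratio to Tubb2a ran from 1.48 to 3.45. Nefl held 62.0% ± 3.1 of the neurofilaments, Atp1b1 75.8% ± 1.9 of the sodium pump beta subunits, Slc2a3, the neuronal glucose transporter, 55.8% ± 3.1 against Slc2a1, and Aplp1 48.4% ± 2.3 of the APP family. The shares of Ywhaz (23.8% ± 0.44 of the 14-3-3 genes), Mef2c (43.2% ± 1.5 of MEF2) and Prkcb (44.2% ± 3.7 of conventional protein kinase C) were narrow leads, as each exceeded the second member in 5 of 6 libraries. With the longest transcript as gene length Ywhah, not Ywhaz, led the 14-3-3 genes, and 14.9% of Ywhaz coding windows were unique.

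The nuclear receptor and corepressor families that bear on the series were read in the same way. Thra held 89.0% ± 1.5 of thyroid hormone receptor TPM, and its ratio to Thrb was 8.42, 9.33 and 7.01 in females 2, 4 and 5 and 6.63, 8.22 and 9.49 in males 8, 12 and 13. The mean ratio of 8.18 ± 1.2 became 12.9 with the longest transcript as gene length. Part of the Thra transcripts encode a form that does not bind the hormone, and counts per gene do not separate it. Tbl1xr1 itself (ENSMUSG00000027630, chromosome 3, 22076652 to 22216594, plus strand) was at 47.9 ± 4.84 TPM. Its values were 113, 110.02 and 95.7 CPM in females 2, 4 and 5 and 117, 108 and 112 CPM in males 8, 12 and 13, lowest in female 5. Its paralog Tbl1x was at 57.0 ± 2.93 TPM, at 1.20 ± 0.098 times Tbl1xr1, and higher in 6 of 6 libraries. The BCV of Tbl1xr1 was 0.084.

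**Figure D4:**
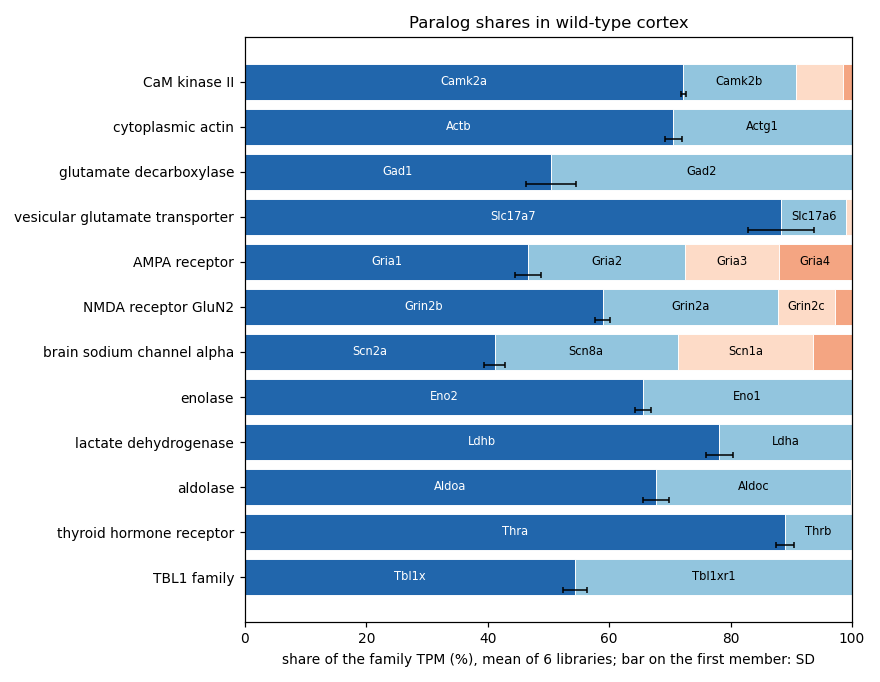
Share of each member in the summed TPM of its family (horizontal, percent), as the mean of 6 wild-type libraries, for 12 families; the black line is the SD of the first member's share. Camk2a (72.2%), Slc17a7 (88.3%) and Thra (89.0%) dominate their families, and Gad1 and Gad2 split theirs nearly evenly with all exons as gene length.

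Among markers of other brain regions, a larger share varied between wild-type mice than over all genes. Among 15127 genes with a mean of 1 CPM, 245 had a BCV of at least 0.3, or 1.62%. Of the 45 genes on the lists of other brain regions that reached 1 CPM, 23 did so, or 51.1%, with a median BCV of 0.301. Among the 37 excitatory and layer genes 1 did, Crym, and among the 65 genes of glia and vessels 0 did, with medians of 0.117 and 0.101. These genes had been chosen with earlier results of these data known, so the counts describe the lists and are no test. The 23 region markers were a small part of the 245. Protein-coding genes made up 62.4% of the 245, against 89.1% over all. Of those with coding windows, 7.24% had a coding uniqueness under 10%, against 1.46% over all. The 245 had a median level of 1.88 CPM, against 20.7 CPM over all, and 192 of them were under 5 CPM. The count of 245 fell to 158 without male 8.

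Among the 15 protein-coding or long noncoding genes of highest BCV, with provisional clone names left out, Gabra6 (1.064), Pmch (0.968), Cbln3 (0.803), Slc6a3 (0.803) and Eomes (0.692) came first. Male 13 held the highest level of 10 of the 15. It was highest for 19.6% of the 245 genes at a BCV of 0.3 and for 14.4% of all genes. The 10 included Fat2, a cadherin of cerebellar granule cells (0.679), Cnpy1 (0.655), Frmd7 (0.680), the desmosomal cadherin Dsc3 (0.584), the epidermal keratin Krt2 (0.558) and Dio3, the deiodinase that inactivates thyroid hormone (0.608). Dio3 was at 2.45, 2.20 and 0.334 CPM in females 2, 4 and 5 and 0.468, 0.992 and 3.36 CPM in males 8, 12 and 13. It was low in female 5 and male 8 and highest in male 13. Female 2 was highest for Slc6a3, for Chrna6, the nicotinic subunit of dopamine neurons (0.575), and for the transcription factor gene Ebf3 (0.555). Entpd4b (0.546, highest in female 4) and Tmem254c (0.547) had 0% unique windows, so their counts cannot be told from those of their copies. Strand use is not known, and Pmch, Eomes and Ebf3 share bases with a gene on the other strand (Parpbp, Gm33460 and Gm45278), as do mt-Nd5 with mt-Nd6, Kcnj13 with Gigyf2, Plin4 with Hdgfl2 and Gapdh with Iffo1.

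Within the lists, the striatum had 11 of 14 members at a BCV of 0.3 or more, led by Drd2 (0.403), the orphan receptor Gpr6 (0.376) and the adenosine receptor Adora2a (0.363). That count was 1 without female 5 and 3 without female 2 or without male 13. The cerebellum had 3 of 5 (Gabra6, Cbln3, and Cbln1 at 0.313), the monoamine list 3 of 5 (Slc6a3, the vesicular transporter Slc18a2 at 0.519, and tyrosine hydroxylase, Th, at 0.375), the hypothalamus 2 of 2 (Pmch, and thyrotropin-releasing hormone, Trh, at 0.301), the olfactory bulb 2 of 3 (Eomes and Th) and the hippocampus 2 of 9 (Fibcd1 at 0.321 and C1ql2 at 0.304). Without male 13 the cerebellar count was 1, and without female 2 the hypothalamic count was 1. Single members passed in the thalamus (Tcf7l2, 0.370), inhibitory neurons (Calb2, 0.382), layer 6 (Crym, 0.313), meninges (Dcn, 0.362) and glucocorticoid-induced genes (Plin4, 0.406). Calb2, the calretinin of some interneurons, was at 33.2, 19.8 and 10.9 CPM in females 2, 4 and 5 and 22.3, 10.4 and 38.2 CPM in males 8, 12 and 13, and thalamic and olfactory neurons make it too. It was highest in male 13 and female 2.

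**Figure D5:**
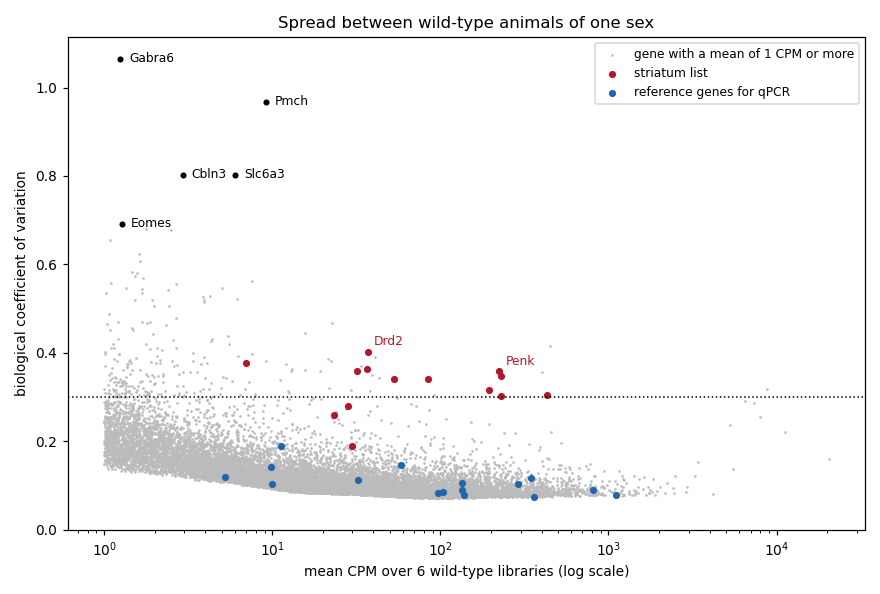
BCV between mice of the same sex (vertical) against mean CPM (horizontal, log scale) for 15127 genes, with the striatal list in red, reference genes for qPCR in blue and the 5 named genes of highest BCV in black. The dotted line is 0.3; 11 of the 14 striatal genes lie above it and all 16 reference genes below it.

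At the other end, the steadiest genes with a mean of at least 10 CPM were Cpsf7, an mRNA 3′ end processing factor, Calu, Srgap2, Uqcrh of complex III and Adss of purine synthesis, with BCVs of 0.071 to 0.072. Uqcrh was at 92.2, 90.8 and 91.4 CPM in females 2, 4 and 5 and 93.2, 91.6 and 95.2 CPM in males 8, 12 and 13, so the libraries nearly coincided. Its own spread, 92.4 ± 1.61 CPM, was smaller than its BCV gives, as the BCV is pulled toward the trend. Of the 16 reference genes, Sdha was steadiest (0.075), followed among others by Ywhaz (0.079), Rplp0 (0.083), Hprt (0.087), Actb (0.090), Tfrc (0.090), Pgk1 (0.102) and Gusb (0.102). Higher values were seen for Polr2a (0.105), Tbp (0.111), Ppia (0.117), Rpl13a (0.119), B2m (0.146) and Gapdh (0.189). Gapdh was at 8.74, 17.0 and 15.9 CPM in females 2, 4 and 5 and 8.56, 7.98 and 9.35 CPM in males 8, 12 and 13, higher in females 4 and 5 than in the other 4 libraries.

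Sex is the one factor the labels give within the wild-type mice, and few genes differed by it. In edgeR (quasi-likelihood test), 7 of 17223 genes passed a Benjamini-Hochberg adjusted p of 0.05 (0.0406%), with 5 higher in males (0.029%) and 2 lower (0.0116%). All 7 lie on the sex chromosomes. Among 16613 autosomal genes 0 passed in edgeR, and 417 had an unadjusted p under 0.05, or 2.51%. Over all 17223 genes the count under 0.05 was 444, below the 861 to be counted there if p were uniform. Limma-voom called 0 autosomal genes as well, and DESeq2 called 3 (1700047I17Rik2, Gm7536 and Hbb-bs).

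The Y-linked genes and Xist matched the sex labels of all 6 mice. Kdm5d, a histone demethylase, was at 0, 0 and 0.0418 CPM in females 2, 4 and 5 and 45.1, 42.8 and 42.8 CPM in males 8, 12 and 13 (adjusted p = 4.10e-08, edgeR). Uty, Eif2s3y and Ddx3y were at a mean of 23.8 ± 2.14, 48.2 ± 7.09 and 81.9 ± 16.6 CPM in males (SD, n = 3) and at most 0.209 CPM in any female, near the floor. Gm29650, the fifth, was at 2.91 ± 0.764 CPM in males. Xist, the RNA that silences 1 X chromosome, was at 956, 885 and 889 CPM in females 2, 4 and 5 and 2.29, 1.94 and 0.461 CPM in males 8, 12 and 13 (adjusted p = 3.91e-07, edgeR). Tsix, which runs antisense to Xist, was at 0.183 TPM, and the strand used in counting is not given in the sources used here.

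Of the X-linked genes known to escape silencing, Eif2s3x, a subunit of the translation initiation factor eIF2, passed. It was at 111, 109.7 and 108 CPM in females 2, 4 and 5 and 71.6, 74.9 and 75.5 CPM in males 8, 12 and 13, without overlap, lower in males by 0.57 on the log2 scale (log2 fold change -0.57, SE 0.07, adjusted p = 0.0271, edgeR). Its adjusted p rose to 0.0765 with library totals in place of scaled totals and to 0.157 to 0.277 when any single library other than male 8 was left out. Kdm6a was at 54.3, 51.4 and 49.4 CPM in females 2, 4 and 5 and 42.3, 40.8 and 38.8 CPM in males 8, 12 and 13 (log2 fold change -0.35) and Kdm5c at 87.5, 88.1 and 88.7 CPM in females 2, 4 and 5 and 59.3, 74.3 and 71.8 CPM in males 8, 12 and 13 (log2 fold change -0.36). In both the sexes did not overlap, yet the adjusted p was 0.999 in edgeR, as it was for Ddx3x, whose sexes overlapped. The X and Y copies of Eif2s3 are printed to show what separates their counts, as the first 60 coding bases of Eif2s3x and the closest stretch of Eif2s3y, with capitals at the 13 bases that differ.
Eif2s3x: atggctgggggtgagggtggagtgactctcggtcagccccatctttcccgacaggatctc
Eif2s3y: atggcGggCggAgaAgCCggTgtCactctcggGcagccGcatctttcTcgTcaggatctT
Eif2s3x lies on chromosome X (94188707 to 94212862, minus strand) and Eif2s3y on chromosome Y (1010543 to 1028847, plus strand). Only 5.24% of the coding windows of Eif2s3x were unique to it, against all of those of Eif2s3y, so reads of Eif2s3x can match other annotated copies. The printed stretch itself was found in no other gene.

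The 5 autosomal genes of smallest p with a full gene symbol, pseudogenes left out, did not pass in edgeR with the filter on low counts and all 6 libraries. Gm7536, a processed pseudogene (adjusted p = 0.699, edgeR), and 1700047I17Rik2 (adjusted p = 0.999, edgeR) lay between them by p. Autosomal calls did appear in edgeR with no filter on low counts, where there were 19 with Sumo2, Hbb-bs and Hba-a1 among them, and without male 8, where there were 3 (Sumo2, Gm7536 and Lcn2). Sumo2, which encodes a small ubiquitin-like modifier, was at 11.9, 8.60 and 10.5 CPM in females 2, 4 and 5 and 61.9, 28.2 and 23.3 CPM in males 8, 12 and 13 (adjusted p = 0.471, edgeR), and 0% of its coding windows were unique. Hbb-bs was at 28.3, 25.3 and 22.5 CPM in females 2, 4 and 5 and 11.8, 18.3 and 13.7 CPM in males 8, 12 and 13. Hba-a1 was at 11.3, 8.52 and 8.19 CPM in females 2, 4 and 5 and 5.10, 5.95 and 5.90 CPM in males 8, 12 and 13. Both had an adjusted p of 0.999 in edgeR. The sexes did not overlap in either, but genes picked by their smallest p tend to separate, so this adds nothing to the test. Cd93, an endothelial receptor, and Crocc2 had the same adjusted p, at 16.8 ± 1.11 CPM in females and 11.9 ± 1.11 in males for Cd93 (SD, n = 3), and 1.58 ± 0.193 and 0.691 ± 0.134 CPM for Crocc2. In 3 against 3 mice, a miss of the threshold does not show that the sexes were alike.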

How the data were processed

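RNA of 6 wild-type cortex samples was analysed, and 6 columns of the other genotype were not used. Values in the deposited table are raw counts of reads per gene, whole and not normalized, as their unequal totals show. Per the submitters' processing notes, the tools were Trimmomatic 0.36, HISAT2 2.1.0, HTSeq 0.11 and Cufflinks (version not given), with GRCm38.p6. No source used here gives their settings, the strand used in counting or what was done with reads of several matches, which leaves genes that overlap uncertain. All columns carry 1 lane name, and no other batch is given.

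Gene lengths, names and sequences came from GENCODE M21, which matched 54165 of 54232 identifiers (the other 67 took up to 0.0273% of the counts of a library). TPM used the union of a gene's exons. Sequence uniqueness is the share of a gene's distinct 100-base transcript windows found in no other annotated gene, computed from the annotation and not from reads. CPM used TMM-scaled totals. Genes for the sex comparison were kept by filterByExpr and tested with the quasi-likelihood test of edgeR 4.0.16 in R 4.3.3, males minus females, at a Benjamini-Hochberg adjusted p of 0.05. BCV is the square root of edgeR's tagwise dispersion with sex in the design, counted at 0.3 or more. That dispersion is shrunk toward the trend over genes, with 5.67 prior degrees of freedom. List levels add 0.01 CPM before the geometric mean, over members with a mean of 1 CPM. P values measure only the spread between these 6 samples.

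The lists, families and rules were chosen with earlier results of these data known. Genes named are the 15 nuclear mRNAs, 3 mitochondrial mRNAs and 5 long noncoding genes of highest TPM, the highest 2 to 4 of each list and those under 0.1 TPM, the family leaders, the 15 highest and 5 lowest BCVs, the 3 highest BCVs of lists with 2 or more at 0.3, the reference and sex-check genes, the genes called for sex with the 5 lowest autosomal p values (clone names and pseudogenes left out, a limit the rule did not state), and Tbl1xr1. Some items that this rule names are not reported here. Other genes were named after their values were seen, among them Gm23935, Gm28661, AC091332.1, the lesser mitochondrial mRNAs, Hcrt, Egr2, Fezf2, Ccn2, Cck, Chodl, the lowest members of lists, overlapping genes and single members past a threshold.

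On simulated data for the sex comparison over 17223 genes, 66% of genes changed 1.5-fold, 86% at 2-fold, 98% at 4-fold and 100% at 8-fold were recovered (50 genes each), with 7 unchanged genes among 182 calls. In the simulation of BCV over 15104 genes, 17 of 100 genes with a true BCV of 0.5 and 62 of 100 with 0.8 reached 0.3, with 6 others. Apart from the genes whose BCV was raised, both simulations gave each gene exactly the spread of the trend. Real genes scatter around the trend, so shrinkage and recovery can differ, and neither set of rates carries over to the real counts. Alternatives were DESeq2 1.42.0, limma-voom (limma 3.58.1), RLE size factors, library totals, other filters, no sex term, no shrinkage, the longest transcript as length, totals without mitochondrial genes, and leaving out each library. After the data were seen, 2 were added: TPM without genes under 200 bases and Gm42418, and the list counts under every alternative.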

Additional observations from a re-analysis of the deposited data

Results flagged for a closer look

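In each of 129 values given over the 6 libraries, the gap between the most extreme library and its neighbour was set against the whole range. For 10 of them it took more of that range than Dixon's 95% limit for 6 samples allows. A rate of 1 in 20 would give 6.45, but it does not hold for this set, so the count is no test. Eomes, Frmd7, Dsc3, Ebf3 and Entpd4b had been named for their high BCV in these libraries, and Sumo2 for its small p. The values also come from the same 6 libraries and are not independent. Male 8 was the extreme library in 5 of the 10, male 13 in 3, and females 2 and 4 in 1 each.

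Male 8 was apart for the mitochondrial mRNA mt-Nd5 (0.655 of the range, 17759.8 CPM against a median of 6571), the imprinted RNA Meg3 (0.679, 4371 against 3153 CPM) and Sumo2 (0.632, 61.9 against 17.6 CPM). It was also the high end of the ratio Grin2b to Grin2a (0.701, 2.29 against 2.01), and the low end of Atp1b1 to Atp1b2, the sodium pump beta subunits (0.636, 3.44 against 4.43). The same library had the highest mitochondrial share of counts, 10.4%, and its part in these values was not tested.

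Male 13 was apart for Dsc3 (0.868, 5.25 CPM against a median of 0.721), Eomes (0.777, 4.38 against 0.835 CPM) and Frmd7 (0.702, 5.90 against 0.771 CPM). In that library the olfactory bulb list stood at 1.98 of its mean. Eomes is 1 of the 3 genes that set that level, so the level is not separate from Eomes. Its relation to Dsc3 and Frmd7 was not tested. Female 2 was apart for Ebf3 (0.673, 6.88 against 2.48 CPM) and female 4 for Entpd4b (0.688, 14.4 against 2.98 CPM), a gene with no unique sequence.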

How the results depend on the processing

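The count of 7 sex-dependent genes was 6 to 10 under the other tools, scalings, stricter filter and left-out libraries, and 27 with no filter on low counts. The 245 genes at a BCV of 0.3 became 583 without shrinkage, 53 with a mean of 5 CPM, and 158 (without male 8) to 293 (without female 4) when 1 library was left out. With 1 library left out, 1 to 11 striatal, 1 to 3 cerebellar, 2 to 4 monoamine and 1 to 3 hypothalamic genes reached 0.3. At a mean of 5 CPM it was 1 for each of cerebellum, monoamine neurons and hypothalamus, because fewer genes were counted, and with no sex term 1 for hypothalamus. The 100 most abundant genes held 14.6% of counts without mitochondrial genes. The number of genes at 1 TPM ran from 15596 to 18322 over all alternatives. The ratio of Gad1 to Gad2 ran from 0.990 (without male 13) to 1.08 (without male 8) when 1 library was left out, and that of Sv2a to Sv2b, synaptic vesicle proteins, from 1.36 to 0.956 with the longest transcript as gene length. The causes were not tested. No paired analysis was possible because the sexes share no animal number. Below 1 CPM a gene had few counts in each library, so counting error takes a large part of its spread.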

Other observations

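Each of the 4 X-linked genes on the sex check list has a counterpart on the Y chromosome, and their summed levels can be read in TPM, which was done after the values were seen and without a test. Eif2s3x alone stood in males at 0.677 of its female level, and the sum with Eif2s3y was 121 ± 12.2 TPM in males and 112 ± 9.15 in females (SD, n = 3 each). The sum of Ddx3x and Ddx3y, RNA helicases, was 310.4 ± 14.5 in males and 300.4 ± 22.1 in females, and that of the demethylases Kdm5c and Kdm5d was 49.1 ± 7.53 and 48.3 ± 3.11. In these 3 pairs the sums of the sexes overlapped in TPM, while the X copies alone did not in TPM. In CPM the sexes did overlap for Ddx3x, with male 8 at 378 and female 4 at 374 CPM. For Kdm6a and Uty the male sum was the higher without overlap, 28.4 ± 0.999 against 24.1 ± 2.67 TPM. How many of all genes separate by sex in this way was not counted. Y copies made up 19.7% (Ddx3y) to 37.3% (Eif2s3y) of the male sums.

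Female 2 held the highest level of 5 of the 5 blood genes with a mean of 1 CPM, and the blood list stood at 1.38, 1.24 and 1.02 in females 2, 4 and 5 and 0.82, 0.84 and 0.64 in males 8, 12 and 13. The 3 females were above the 3 males, which was not tested, and how many lists or genes separate in this way was not counted. Hbb-bs and Hba-a1, named above for their small p, are among these genes. Globins are near copies, so the 5 genes are not separate readings. Over all genes with a mean of 1 CPM, female 2 was the highest library for 11.5%. The ependymal list, with the ciliary factor Foxj1 at 13.4 ± 1.89 TPM, stood at 1.26, 1.01 and 1.20 in females 2, 4 and 5 and 0.71, 0.90 and 0.86 in males 8, 12 and 13, highest in females 2 and 5. The meningeal list stood at 1.25, 0.77 and 0.95 in females 2, 4 and 5 and 1.22, 0.67 and 1.06 in males 8, 12 and 13, highest in female 2 and male 8 and lowest in male 12. Of the 245 genes at a BCV of 0.3, 66 were highest in male 8 (26.9%, against 26.3% of all genes), 58 in female 5 (23.7% against 16%), 48 in male 13 (19.6% against 14.4%), 37 in female 2 (15.1% against 11.5%), 18 in female 4 (7.3% against 18.8%) and 18 in male 12 (7.3% against 13.1%).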
